A study of Homo sapiens with 7 samples.

Results

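The genes described here encode the integrins, the transmembrane receptors by which cells hold on to the extracellular matrix, and the laminins, the cross-shaped proteins of the basement membrane that many integrins bind. Members were chosen by symbol alone: every row named as an integrin alpha subunit, an integrin beta subunit or a laminin chain was kept, whatever its level. The rule found 36 of the 27981 genes listed in any of the 3 tables, comprising 16 integrin alpha subunits, 8 integrin beta subunits and 12 laminin chains. All 36 were listed at day 11 and 33 in each of the other tables, where ITGAL, ITGAM and ITGAX, subunits of leukocyte integrins, had no row.

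The series measured heart cells made from the H1 human embryonic stem cell line, by droplet sequencing of the 3' ends of transcripts in single cells. One library came from day 11 and carried no treatment label. The other libraries came from day 15, one from cells given DMSO, the solvent, and one from cells given CHIR (CHIR99021, which blocks the kinase GSK3 and so raises canonical Wnt signalling). The labels gave neither the dose nor the duration of CHIR, and all 3 libraries came from 1 cell line, with live cells sorted by exclusion of a dye. With 1 library per group there is no replicate check and no test between groups, so every interval below covers counting error only, at 95%.

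A working integrin is a pair of 1 alpha and 1 beta subunit, and the alpha subunit largely sets what it binds: laminin, collagen, or proteins with the RGD peptide such as fibronectin. A laminin is a trimer of 1 alpha, 1 beta and 1 gamma chain, assembled in the cell before it is secreted. In heart muscle, laminins with the alpha2 chain line each muscle cell and are held by dystroglycan and by the integrin of ITGA7 and ITGB1, while alpha4 laminins are known from muscle and vessels; loss of LAMA2 or LAMA4 is linked to muscle disease in people. Transcript levels do not show which pairs or trimers the protein forms.

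Cells were placed in classes by the summed counts of fixed marker genes, none of them a member. Muscle-like cells, led by sarcomere genes such as TNNT2, made up 55.9% of cells at day 11 (3177 cells), 47.0% in DMSO (1785 cells) and 22.5% in CHIR (1261 cells). Mesenchymal-like cells, led by collagen genes, made up 17.8% (1010 cells), 40.1% (1523 cells) and 66.5% (3731 cells) in the same order. Endothelial-like cells numbered 55, 18 and 39, and endoderm-like cells 121, 18 and 6. The gates were set after the scores had been seen, and 4.17% to 18.9% of a library's cells lay within a factor of 2 on 1 side of a gate. The libraries held 59847557 to 81076689 unique molecular identifiers (UMIs, 1 per captured transcript) in the cells kept. They shared 3 to 6 cell barcodes pairwise. Ribosomal protein genes took 15.5% of UMIs at day 11, 25.2% in DMSO and 33.3% in CHIR, and leaving them and mitochondrial genes out of the totals raised the ratios between libraries described below by 0.17 to 0.21 on the log2 scale. Levels are given in CPM, the UMIs of a gene per 1000000 UMIs summed over the cells of a class in a library. The 3' UMIs count transcripts once each, so no division by length was made.

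Over all classes the 36 members together took 1524 CPM at day 11, 689 in DMSO and 598 in CHIR. Of the members, 16 reached 50 CPM in some library and class, and 20 did not. ITGB1, the beta subunit that pairs with most of the alpha subunits expressed here, had the highest level of all members in each of the 12 combinations of library and class. Its level in muscle-like cells was 341 CPM at day 11, 237 in DMSO and 174 in CHIR. Mesenchymal-like cells held 514, 263 and 203. Endothelial-like cells stood above both in every library, at 664 (607 to 725), 452 (385 to 529) and 469 (417 to 526). ITGB1 was present in every class, whereas several laminin chains, alpha subunits and other beta subunits, described next, differed by more than 10-fold between classes.

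**Figure D1:**
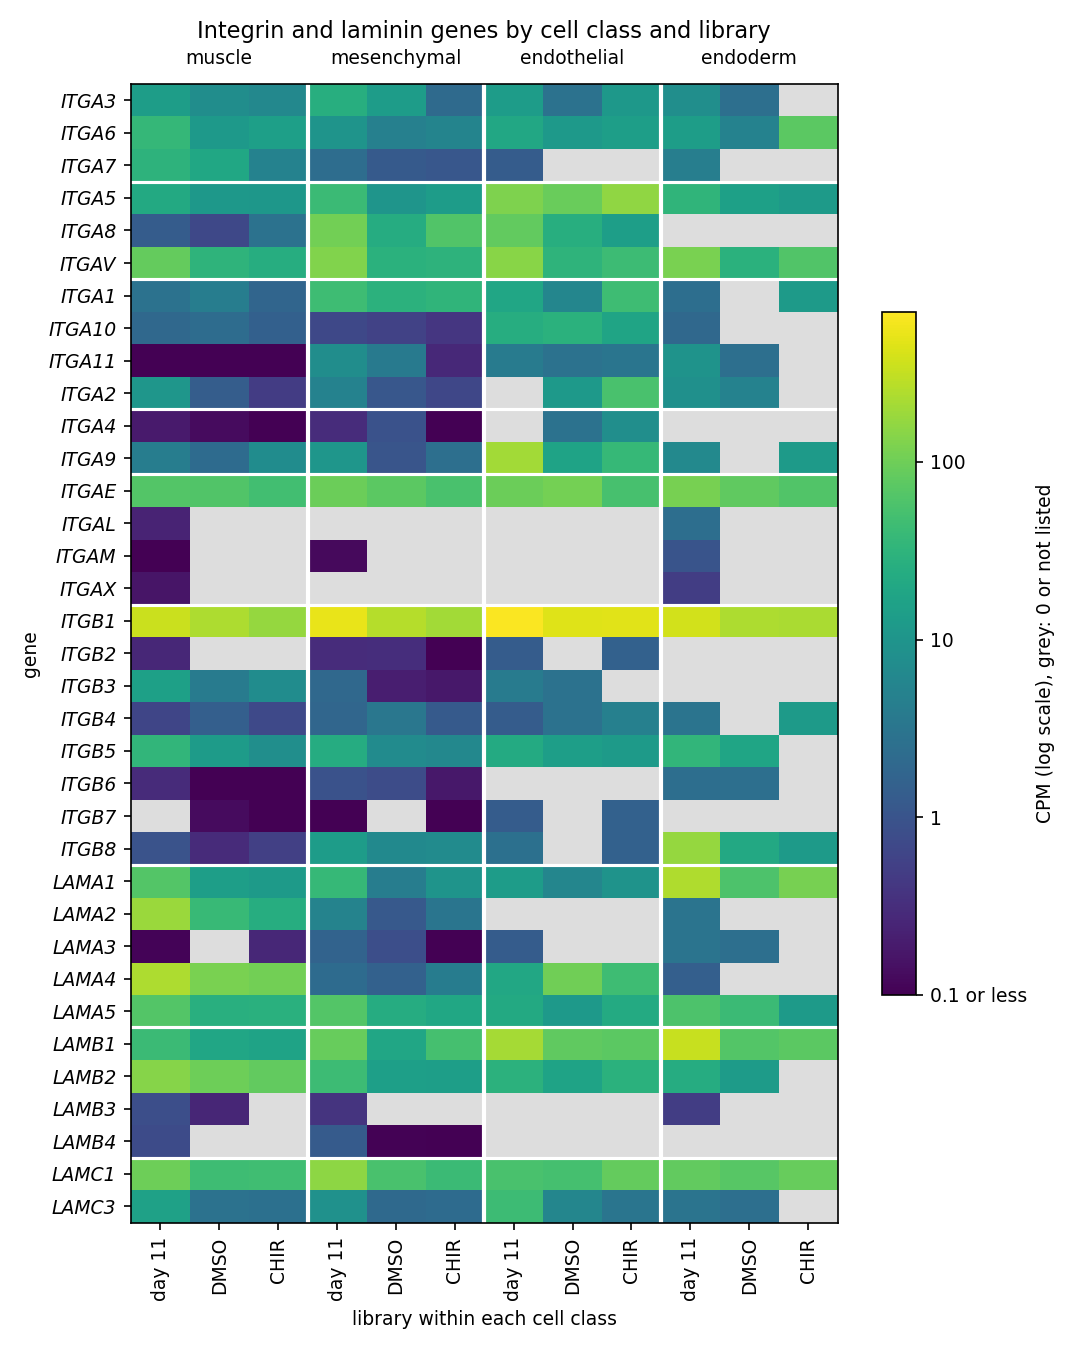
Level of members in each library and cell class, on a log colour scale in CPM, with grey for 0 or not listed. ITGB1 is high in every column. Between muscle-like and mesenchymal-like columns, LAMA4 and LAMA2 are high in the former and ITGA8 and ITGA1 in the latter. LAMA4 also reaches 103 CPM in the DMSO endothelial-like column.

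Among the laminin alpha chains, which carry the sites for receptors, LAMA4 and LAMA2 set muscle-like cells apart from mesenchymal-like cells. In muscle-like cells LAMA4 stood at 233 CPM (228 to 238) at day 11, 119 (114 to 123) in DMSO and 106 (101 to 111) in CHIR. In mesenchymal-like cells it stood at 2.19, 1.56 and 4.12. No mesenchymal-like value came near a muscle-like one, and the ratio was 106 (76.5 to 153) at day 11, 76.2 (56.6 to 105) in DMSO and 25.7 (22.3 to 29.8) in CHIR. LAMA2, the chain of the laminin around muscle fibres, had 184, 39.0 and 25.2 CPM in muscle-like cells against 5.32, 1.2 and 3.16 in mesenchymal-like cells. The classes were again apart in each library, by 34.7-fold (28.0 to 43.5), 32.5-fold (23.1 to 47.2) and 7.97-fold (6.64 to 9.61).

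RNA released from broken cells gives every droplet a few UMIs of genes it does not express, and the muscle markers themselves gauge this. In mesenchymal-like cells the 10 muscle markers had a median of 4.39%, 2.77% and 2.59% of their muscle-like level, a share that the gate on those markers also limits. LAMA4 there was at 0.943%, 1.31% and 3.89% of its muscle-like level, below the median of the markers at day 11 and in DMSO and above it in CHIR. LAMA2 was at 2.88%, 3.08% and 12.5%. With each cell thinned to 5000 UMIs, 57.4% of muscle-like cells had a LAMA4 UMI at day 11 (55.6 to 59.1), 40.6% in DMSO (38.3 to 43.0) and 39.1% in CHIR (36.3 to 41.8), against 1.40%, 0.657% and 1.85% of mesenchymal-like cells. Without thinning the muscle-like shares were 75.0%, 63.3% and 67.9%, and the mesenchymal-like ones 3.07%, 2.82% and 4.53%. Median depth was 11483, 12753 and 14246 UMIs in muscle-like cells and 15082, 17326 and 11772 in mesenchymal-like cells, and cells under 5000 UMIs (120, 64 and 17 muscle-like, 9, 1 and 6 mesenchymal-like) were left out of the thinned shares.

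The other alpha chains were less divided between the classes. LAMA5, a chain of most adult basement membranes, stood at 66.0, 26.6 and 27.5 CPM in muscle-like cells and at 64.9, 23.7 and 19.2 in mesenchymal-like cells. LAMA1, the chain of early embryonic basement membranes, stood at 64.4, 14.1 and 12.6 against 37.9, 4.25 and 9.69. LAMA3, a chain of epithelial laminin, reached at most 2.97 in any class. The alpha chain UMIs of muscle-like cells at day 11 were 42.5% LAMA4 and 33.7% LAMA2, and those of mesenchymal-like cells were 57.9% LAMA5 and 33.9% LAMA1. LAMA4 made up 59.8% of the muscle-like alpha chain UMIs in DMSO and 61.8% in CHIR, whereas LAMA2 made up 19.7% and 14.7%. The summed alpha chain level was 548, 198 and 171 CPM in muscle-like cells and 112, 31.5 and 36.3 in mesenchymal-like cells, so muscle-like cells were the higher class in each library.

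**Figure D2:**
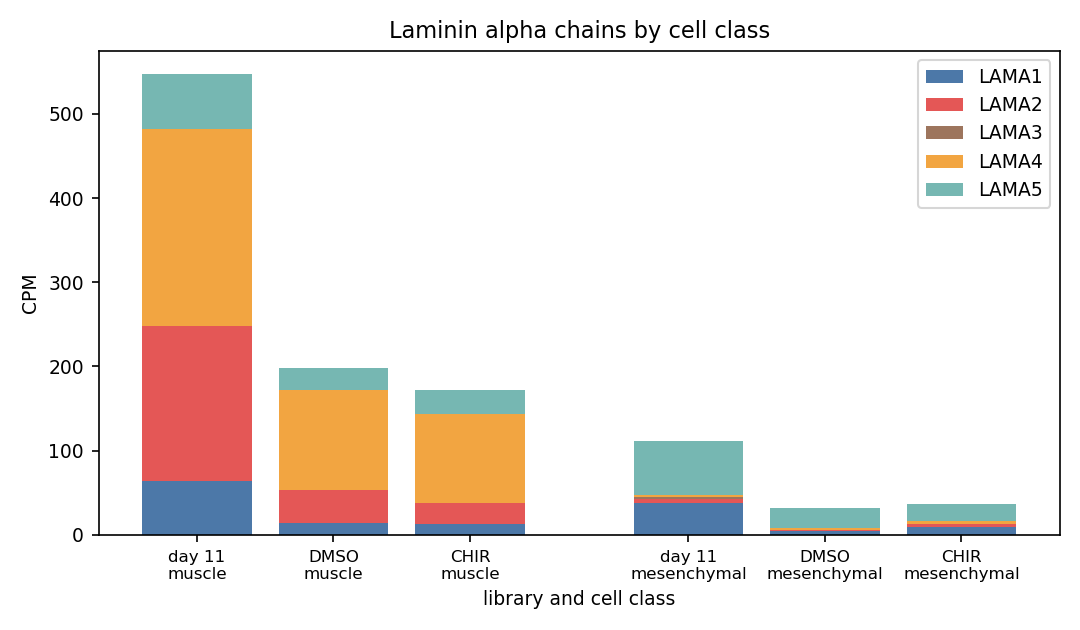
Summed level of the 5 laminin alpha chains in CPM, stacked by chain, in muscle-like and mesenchymal-like cells of each library. LAMA4 and LAMA2 fill most of each muscle-like bar, and LAMA5 takes 53.0% to 75.1% of each mesenchymal-like bar.

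Among the beta chains, which take the same place in the trimer, LAMB2 was the higher in muscle-like cells in each library. LAMB2, known from the neuromuscular and heart muscle basement membrane, stood at 138, 98.1 and 84.5 CPM in muscle-like cells and 43.7, 14.8 and 14.2 in mesenchymal-like cells. The difference was 3.16-fold (2.92 to 3.42), 6.63-fold (5.97 to 7.38) and 5.96-fold (5.46 to 6.53). LAMB1 was at 41.7, 18.7 and 17.2 against 88.0, 18.9 and 51.3, lower in muscle-like cells at day 11 and in CHIR and level between the classes in DMSO, where the ratio was 0.990 (0.870 to 1.13). LAMB2 held 76.1%, 83.8% and 83.1% of muscle-like beta chain UMIs, and LAMB1 66.0%, 56.0% and 78.3% of the mesenchymal-like ones. The gamma chain was nearly all LAMC1, the gamma chain of most laminins. It stood at 99.4, 45.3 and 46.3 in muscle-like cells and 154, 55.8 and 42.1 in mesenchymal-like cells.

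Of the alpha subunits that bind laminin, ITGA7 and ITGA6 were higher in muscle-like cells in each library and ITGA3 was not. ITGA7, the laminin receptor of striated muscle, stood at 31.0 CPM (29.3 to 32.9) at day 11, 19.8 (18.0 to 21.7) in DMSO and 5.04 (4.08 to 6.17) in CHIR, against 2.38, 1.24 and 1.12 in mesenchymal-like cells. Its ratio was 13.1, 16.0 and 4.51. ITGA6, a laminin receptor of many epithelia and early heart cells, had 36.8, 11.9 and 14.7 against 9.64, 4.78 and 5.52. ITGA3, which binds LAMA5 laminins, had 13.6, 7.77 and 6.23 against 25.7, 13.2 and 2.14, so its order turned: muscle-like cells were lower by 1.88-fold at day 11 and 1.70-fold in DMSO but 2.91-fold higher (2.22 to 3.82) in CHIR. ITGA7 and ITGA3 lie below the level set for naming a member and, like ITGA1, ITGB3 and the others under 50 CPM named in this text, were chosen after their values had been seen.

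Among the subunits that bind RGD proteins, ITGA8, the receptor for nephronectin, was higher in mesenchymal-like than in muscle-like cells in each library. It stood in mesenchymal-like cells at 106 CPM (101 to 111) at day 11, 23.7 (21.9 to 25.5) in DMSO and 62.7 (60.5 to 65.0) in CHIR. In muscle-like cells it stood at 1.33, 0.691 and 2.84. The classes did not come near each other, with muscle-like cells 79.2-fold, 34.3-fold and 22-fold lower. The muscle-like values were 1.26%, 2.92% and 4.54% of the mesenchymal-like ones. They were below the median share of mesenchymal markers found in muscle-like cells (5.51%, 6.05% and 4.8%). Single markers ranged from 0.318% to 126% at day 11, 0.768% to 58.8% in DMSO and 3.28% to 13.2% in CHIR, so this median is a rough gauge. The part of free RNA in the muscle-like values was not tested. After thinning, 31.1%, 12% and 24.6% of mesenchymal-like cells had an ITGA8 UMI, against 0.654%, 0.349% and 1.85% of muscle-like cells; before it, 53.7%, 28.8% and 45.8% against 1.35%, 0.840% and 3.81%. ITGAV, the vitronectin receptor subunit, and ITGA5, the fibronectin receptor subunit, were in both classes: ITGAV at 85.7, 31.4 and 25.0 in muscle-like and 131, 28.9 and 30.3 in mesenchymal-like cells, and ITGA5 at 21.8, 11.3 and 10.9 against 41.4, 10.0 and 13.4. For both, mesenchymal-like cells were more than 1.5-fold higher at day 11 alone.

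The collagen receptor ITGA1 was lower in muscle-like cells in each library. It stood at 2.80, 4.19 and 1.77 CPM there and at 44.5, 29.5 and 32.9 in mesenchymal-like cells, differences of 15.9-fold, 7.04-fold and 18.6-fold. ITGA11, another collagen receptor, had 2, 2 and 1 UMIs in muscle-like cells and 121, 106 and 14 in mesenchymal-like cells. ITGA9, which binds tenascin and VCAM1, stood at 4.22, 2.20 and 7.35 CPM in muscle-like cells against 10.3, 1.03 and 2.56, so it was the lower in muscle-like cells at day 11 and the higher at day 15. ITGAE, best known from T cells, stood at 65.4, 64.1 and 47.3 against 97.1, 75.0 and 55.3, and differed by less than 1.5-fold between these classes in each library, except at day 11 where 4 of the other settings took it past that fold, with TMM factors for example to 0.599.

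Of the other beta subunits, ITGB3, which pairs with ITGAV, followed the muscle-like cells and ITGB8 the mesenchymal-like ones. ITGB3 stood at 15.4, 3.93 and 7.35 CPM in muscle-like cells and 2.0, 0.212 and 0.180 in mesenchymal-like cells, where DMSO and CHIR gave 6 and 9 UMIs in all. ITGB8, which also pairs with ITGAV and is known for the release of latent TGF-beta, stood at 0.980, 0.302 and 0.537 in muscle-like cells and 13.2, 6.58 and 7.18 in mesenchymal-like cells. ITGB5, a further partner of ITGAV, stood at 34.1, 12.8 and 8.0 against 24.3, 7.15 and 6.20, with the larger level in muscle-like cells each time.

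Counting a member as higher or lower where the ratio passed 1.5-fold and the summed UMIs reached 20, muscle-like cells at day 11 were higher for 11 and lower for 16 of 30 measured members. The background over all genes at day 11 was 37.8% higher and 20.6% lower. In DMSO 10 were higher and 10 lower of 29, against 35.2% and 22% of all genes, and in CHIR 9 were higher and 5 lower of 24, against 24.9% and 25.9%. The median log2 ratio of the measured members was -0.61, 0.12 and 0.33, against 0.28, 0.16 and -0.02 over all genes measured. Of the 24 members measured in all 3 libraries, 7 were higher in muscle-like cells each time, which is 29.2% against a background of 17.1%: LAMA4, LAMA2, LAMB2, ITGA7, ITGA6, ITGB3 and the collagen receptor ITGA10. The same rule found 4 lower each time, 16.7% against 11.5%: ITGA8, ITGA1, ITGB8 and ITGB4.

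**Figure D3:**
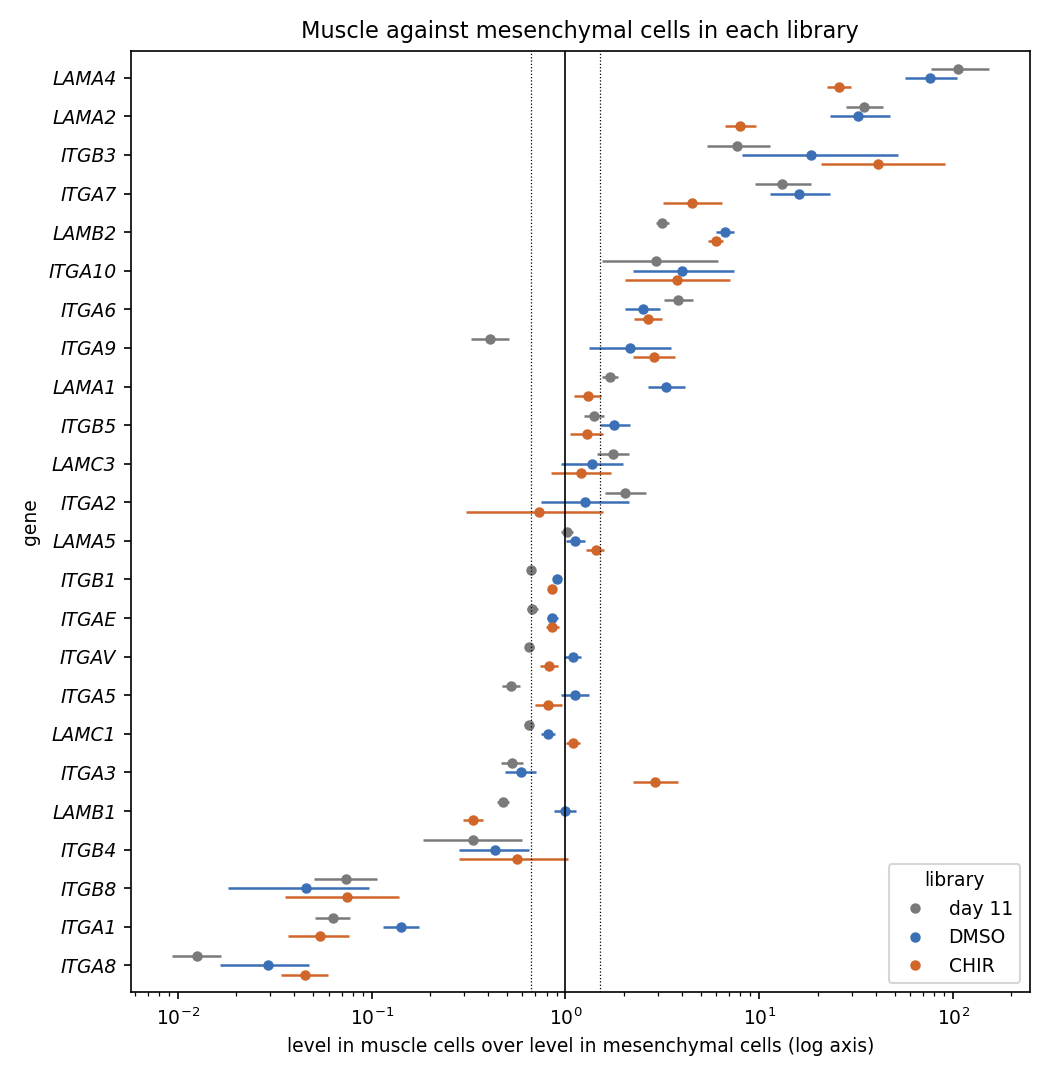
Ratio of muscle-like over mesenchymal-like level on a log axis for each member measured in all 3 libraries, with 1 point per library and bars for the 95% counting interval. LAMA4 and LAMA2 lie far to the muscle side in all 3 libraries and ITGA8 far to the mesenchymal side, while ITGA3 and ITGA9 cross the line of no difference.

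The 250 bases before the transcript start of 4 of these genes are given so that the upstream sequences of 2 members higher and 2 members lower in muscle-like cells in all 3 libraries can be read side by side. They come from RefSeq on GRCh38.p14, 5' to 3' on the strand of the gene: LAMA2 from chr6:128882888-128883137 (plus strand), LAMB2 from chr3:49133051-49133300 (minus), ITGA8 from chr10:15719923-15720172 (minus) and ITGA1 from chr5:52787666-52787915 (plus). Capitals mark matches to the motifs named after the sequences.
LAMA2: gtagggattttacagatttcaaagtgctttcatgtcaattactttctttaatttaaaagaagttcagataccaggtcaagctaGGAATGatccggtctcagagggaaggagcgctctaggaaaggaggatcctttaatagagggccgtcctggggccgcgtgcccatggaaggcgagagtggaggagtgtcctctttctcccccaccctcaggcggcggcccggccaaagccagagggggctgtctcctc
LAMB2: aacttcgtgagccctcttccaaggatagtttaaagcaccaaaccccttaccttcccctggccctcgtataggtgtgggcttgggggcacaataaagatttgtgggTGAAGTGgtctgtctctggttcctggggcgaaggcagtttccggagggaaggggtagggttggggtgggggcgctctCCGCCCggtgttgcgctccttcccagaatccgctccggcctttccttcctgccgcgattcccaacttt
ITGA8: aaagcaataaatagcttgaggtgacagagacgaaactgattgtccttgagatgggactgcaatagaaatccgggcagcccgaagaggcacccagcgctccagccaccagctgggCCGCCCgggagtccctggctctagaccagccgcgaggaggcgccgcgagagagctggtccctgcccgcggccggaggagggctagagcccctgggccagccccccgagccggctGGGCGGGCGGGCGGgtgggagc
ITGA1: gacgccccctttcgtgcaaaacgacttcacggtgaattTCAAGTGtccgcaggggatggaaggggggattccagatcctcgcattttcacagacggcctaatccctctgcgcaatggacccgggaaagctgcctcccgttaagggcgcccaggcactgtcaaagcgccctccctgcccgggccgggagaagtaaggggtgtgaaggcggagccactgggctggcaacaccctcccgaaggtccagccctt

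Motifs of 7 heart, Wnt and general factors were searched on both strands in this window, chosen with the levels above known. Each is given with its share among all 35116 promoters and its count among the 25 members that have an entry. These members have 32 entries, and a member counted if any of its entries matched. The counts are therefore not on the same footing as the shares. The letters TNAAGTG, bound by the heart factor NKX2-5, occurred before 4 members (8.73% of all promoters hold them), among them LAMB2 139 to 145 bases before its start and ITGA1, on the mesenchymal side, 206 to 212 bases before its start. The TEAD letters CATTCC, of the factors through which YAP acts, occurred before 4 members (11.9%), among them LAMA2 on the other strand 162 to 167 bases before its start. GATA factors, with AGATAA, had matches before 2 members (9.17%), neither of them among the 4 sequences. The SP1 letters GGGCGG, which mark many GC-rich promoters, occurred before 14 members (42.6%), with 1 match in LAMB2 and 4 in ITGA8, of which the 3 nearest the start overlap one another. AP-1 had its letters TGANTCA before 2 members (6.57%), and the palindrome of MEF2 lay before 1 (2.36%). The TCF/LEF factors of the Wnt pathway had CTTTGAT before 0 members (2.26%). A match to these letters is a description of the window and shows no binding.

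In the small endothelial-like class ITGA5 stood high beside ITGB1, and ITGA9 did so at day 11. ITGA5 stood there at 127 CPM (102 to 155) at day 11, 91.6 (62.7 to 129) in DMSO and 160 (130 to 194) in CHIR, above every muscle-like and mesenchymal-like value, the highest of which was 41.4. ITGA9, a subunit needed for lymphatic valves, was at 205 (174 to 240) at day 11 but at 17.2 (6.31 to 37.4) in DMSO and 37.9 (24.3 to 56.4) in CHIR. LAMA4, a laminin chain of vessel walls, was at 20.0 (11.2 to 33.0), 103 (72.2 to 143) and 44.2 (29.4 to 63.9). Its DMSO interval held the 119 of DMSO muscle-like cells. Muscle markers in endothelial-like cells had a median of 3.07%, 0.453% and 7.31% of their muscle-like level, and LAMA2 had no UMI in any endothelial-like cell, where 95% intervals reach up to 4.92, 10.6 and 5.83 CPM. ITGA2, a collagen receptor, had 0 UMIs at day 11 (0 to 4.92 CPM), 11.5 CPM in DMSO from 4 UMIs, and 55.3 (38.5 to 76.9) in CHIR, where it was 0.660 in mesenchymal-like and 0.483 in muscle-like cells. These values rest on 55, 18 and 39 cells, and mesenchymal markers stood at 13.9%, 1.32% and 16.5% of their own level in them.

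Endoderm-like cells, led by genes such as TTR and APOA2, carried the chains of embryonic laminin. LAMA1 stood at 246 CPM (225 to 268) at day 11, 59.2 (37.6 to 88.9) in DMSO and 114 (52.0 to 216) in CHIR, and LAMB1 at 337 (312 to 363), 64.4 (41.7 to 95.0) and 75.8. At day 11 both were higher than in the other named classes. At day 15 the LAMB1 intervals overlapped those of endothelial-like cells, where LAMB1 was at 209 (178 to 245) at day 11, 80.2 (53.3 to 116) in DMSO and 74.2 (54.6 to 98.7) in CHIR. ITGB8 was at 173 (155 to 192) at day 11, against 13.2 in mesenchymal-like cells, and at 20.6 and 12.6 at day 15. The CHIR values come from 6 cells and 9 LAMA1 UMIs.

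CHIR against DMSO sets the day 15 libraries side by side, where treatment and library cannot be told apart. In muscle-like cells the largest laminin genes were close between the libraries: LAMA4 at 106 against 119 CPM, LAMB2 at 84.5 against 98.1 and LAMC1 at 46.3 against 45.3, ratios of 0.893 (0.842 to 0.946), 0.862 (0.808 to 0.920) and 1.02 (0.932 to 1.12). ITGB1 was 1.37-fold lower in CHIR. ITGA7, which stood at 5.04 in CHIR and 19.8 in DMSO, was 3.93-fold lower (3.14 to 4.96). After thinning, 2.65% of CHIR muscle-like cells had an ITGA7 UMI against 10.7% in DMSO, and 6.98% against 22.5% before it, so the share followed the level. The muscle-like class itself differed in its markers, whose summed level was 23606 CPM in CHIR and 46232 in DMSO, and 907 CHIR cells against 263 DMSO cells scored between 120 and 240 marker UMIs per 10000, just above the gate. With the gates doubled, 587 CHIR and 1650 DMSO cells remained, with markers at 30223 and 49706, and ITGA7 was at 6.02 against 20.6, 3.42-fold lower (2.54 to 4.71). The part of the remaining marker difference was not tested.

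Of 23 members measured in muscle-like cells, 3 were higher in CHIR (the background over all genes was 20.3%) and 6 were lower (background 26.4%). The lower ones besides ITGA7 were the collagen receptors ITGA2 (2.86-fold) and ITGA1 (2.37-fold), ITGB4 (2.10-fold), ITGB5 (1.60-fold) and LAMA2. With the gates doubled, ITGA2 and ITGB4 each had 5 UMIs in CHIR and 33 in DMSO. Their ratio intervals (0.123 to 1.04) then included no difference. ITGA1 was then 2.32-fold lower (1.36 to 4.22) and ITGB5 1.80-fold (1.36 to 2.41). LAMA2 stood at 25.2 against 39.0, 1.55-fold lower (1.39 to 1.74), which was within 1.5-fold when the gates were doubled (0.818), with TMM factors (0.673) or when mitochondrial and ribosomal protein genes were left out of the totals (0.734). The higher ones were ITGA9, at 7.35 against 2.20, 3.34-fold (2.40 to 4.70), ITGB3, at 7.35 against 3.93, 1.87-fold (1.42 to 2.47), and ITGA8, at 2.84 against 0.691, 4.12-fold (2.32 to 7.72). The ITGA8 values are those set beside the mesenchymal markers above, in libraries where mesenchymal-like cells had 62.7 and 23.7. After the free RNA share was taken off, 2 members were higher, and ITGA8 was not among them. Its muscle-like values were 4.54% of the mesenchymal-like one in CHIR and 2.92% in DMSO, below the shares taken off (4.8% and 6.05%). The median log2 ratio of the members was -0.21, against -0.03 for all genes.

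In mesenchymal-like cells CHIR stood higher than DMSO for LAMB1, ITGA8 and the laminin alpha chains 1, 2 and 4. LAMB1 was at 51.3 against 18.9 CPM, 2.71-fold higher (2.47 to 2.98), and ITGA8 at 62.7 against 23.7, 2.65-fold higher (2.44 to 2.88). LAMA1 was at 9.69 against 4.25, LAMA2 at 3.16 against 1.2, LAMA4 at 4.12 against 1.56 and ITGA9 at 2.56 against 1.03, ratios of 2.28, 2.63, 2.64 and 2.49. The low levels of LAMA2 and LAMA4 here are those set beside the muscle markers above. ITGA3 was at 2.14 against 13.2, 6.19-fold lower (4.98 to 7.74), the member with the largest such gap among those with 100 or more UMIs in each library. In all, 6 of 28 measured members were higher (background 33.0%) and 8 lower (background 24.0%); of those lower, 1 remained from 200 UMIs, and relative to genes of like span 13 were lower. The other lower members were scarce, and ITGA11, ITGA4, ITGA2, ITGB4, ITGB6 and LAMA3 stood at 0.778 to 3.75 in DMSO and 0.0799 to 1.24 in CHIR. Some of these had a larger gap than ITGA3 on fewer UMIs, such as LAMA3 at 0.0799 against 0.849, on 4 and 24 UMIs. LAMA3 and ITGB4 belong to the epithelial laminin and its receptor.

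The mesenchymal-like class differed in its marker genes between the libraries. In DMSO it held UPK3B, a mesothelial gene, at 78.4 CPM and STMN2, a neuronal gene, at 135, against 1.34 and 8.29 in CHIR, while POSTN, a fibroblast gene, was at 51.4 in DMSO and 731 in CHIR. Without the cells that had a UPK3B or STMN2 UMI the counts were 6 higher and 7 lower. ITGA8 was then at 62.4 in CHIR against 24.9 in DMSO, LAMB1 at 50.3 against 19.7, and ITGA3 at 2.17 against 8.44. The directions were as before for these 3 genes, and the gap of ITGA3 was smaller. ITGB1 stood at 202 against 318 without these cells, a ratio of 0.635 where it had been 0.772. The part of the remaining cell mixture in these values was not tested.

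**Figure D4:**
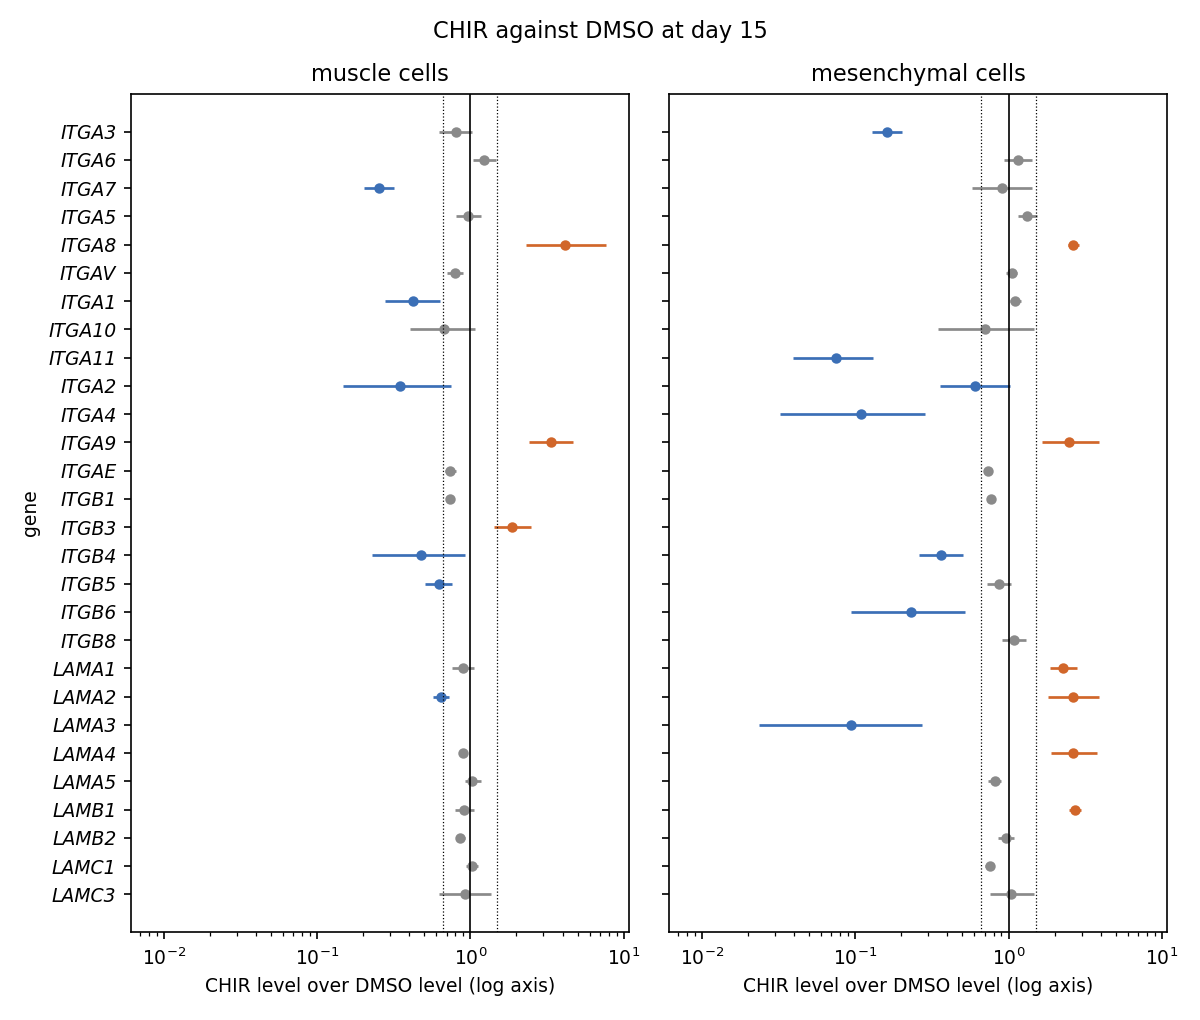
Ratio of CHIR over DMSO level on a log axis for measured members in muscle-like and in mesenchymal-like cells, with bars for the 95% counting interval. LAMB1, LAMA1 and ITGA8 lie to the right in mesenchymal-like cells, and ITGA7 in muscle-like cells and ITGA3 in mesenchymal-like cells lie to the left.

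Other genes of adhesion were counted from lists of adaptors, basement membrane partners, the dystroglycan complex and further integrin ligands. The list of the dystroglycan complex, which holds LAMA2 laminin, also includes BCAM. In muscle-like cells 20.3% of all genes were higher in CHIR and 26.4% lower. Of 17 measured adaptors 3 were higher and 2 lower, and of 7 basement membrane partners 0 were higher and 1 lower. None of 6 measured genes of the dystroglycan complex list passed 1.5-fold in either direction, with BCAM nearly at that limit (85.4 against 127 CPM). Of 9 further ligands 1 was higher and 4 lower. The higher one was NPNT, nephronectin, the ligand of the ITGA8 integrin, at 33.5 against 8.20 CPM (4.09-fold, 3.47 to 4.83), and it stood at 102 against 49.4 in mesenchymal-like cells. Past 3-fold on the lower side were the RGD ligands VTN (0.429 against 5.70) and SPP1 (0.161 against 1.64) and the ITGA9 ligand TNC (0.644 against 2.33). In DMSO the muscle-like level of SPP1 was 1.13% and that of TNC 3.6% of the mesenchymal-like level, under the median of 6.05% found for mesenchymal markers. VTN was at 15.1%. The part of free RNA in these values was not tested. All 3 ligands were also lower in CHIR mesenchymal-like cells, where VTN was at 4.52 against 37.8, SPP1 at 7.04 against 146 and TNC at 3.90 against 64.8.

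In mesenchymal-like cells, where 33.0% of all genes were higher and 24.0% lower, 6 of 18 adaptors were higher and 5 lower in CHIR, 0 of 7 basement membrane partners were higher and 1 lower, 2 of 7 genes of the dystroglycan complex list were higher and 3 lower, and 2 of 9 ligands were higher and 6 lower. DMD, dystrophin, was 22-fold lower (18.0 to 27.1), at 2.10 against 46.2 CPM. BCAM, a receptor for LAMA5 laminin, was 3.23-fold lower (2.99 to 3.49), SGCD, a sarcoglycan, 3.56-fold and LIMS2, an adaptor of the integrin-linked kinase, 7.52-fold. TNS1, which ties integrins to actin, was 3.08-fold higher. VCAM1, a ligand of the integrins with ITGA4 and ITGA9, was 3.02-fold higher, at 6.30 against 2.09 CPM. Muscle-like cells held far more VCAM1, at 143 in CHIR and 138 in DMSO. The part of free RNA in its mesenchymal-like values was not tested.

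DMSO at day 15 against day 11 sets the later library beside the earlier one. In muscle-like cells 1 of 26 measured members was higher at day 15 (background 8.27%) and 20 were lower (background 53.5%). LAMA2 was at 39.0 against 184 CPM (4.73-fold lower, 4.41 to 5.07), LAMA1 at 14.1 against 64.4 (4.58-fold), ITGA6 at 11.9 against 36.8 (3.09-fold), ITGAV at 31.4 against 85.7 (2.73-fold) and LAMA4 at 119 against 233 (1.97-fold). ITGB1, LAMB2 and ITGAE were nearer, at 1.44-fold, 1.41-fold and 1.02-fold lower. With TMM factors, which raise each of these ratios by 0.60 on the log2 scale, 12 members were lower, and LAMA4 (0.769) and LAMC1 (0.689) were within 1.5-fold. The member that was higher was ITGB4, on 34 UMIs against 23. LAMB4 had 28 UMIs at day 11 and 0 in DMSO. In mesenchymal-like cells, a comparison added after the data were seen, 2 of 30 were higher (background 7.66%) and 24 lower (background 52.3%), including ITGA8 at 23.7 against 106, LAMB1 at 18.9 against 88.0 and ITGB1 at 263 against 514; with TMM factors 15 were lower and ITGB1 was within 1.5-fold (0.806).

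Over all genes in muscle-like cells this ratio went with the length a gene spans on the genome. The median log2 ratio was 0.08 for genes spanning under 10 kb, -0.35 from 10 to 30 kb, -0.91 from 30 to 100 kb, -1.73 from 100 to 300 kb and -2.96 above that. The measured members have a median span of 85.6 kb against 30.9 kb for all genes. Their median log2 ratio was -1.14 against -0.67 for all genes, and -0.02 once each was set against genes of like span. On that scale 8 members were higher and 8 lower. The day 15 over day 11 ratios of LAMA2, LAMA4 and LAMC1, all below 1, were 1.65, 1.69 and 1.51 times the median ratio of genes of like span, while those of ITGAV and LAMA1 were within 1.5-fold. In mesenchymal-like cells the median log2 ratio of the members was -1.30 in the plain ratio and -0.14 against genes of like span. The sources used here do not give whether intron reads entered the counts. Day and library cannot be told apart, and the part of either in this pattern was not tested.

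**Figure D5:**
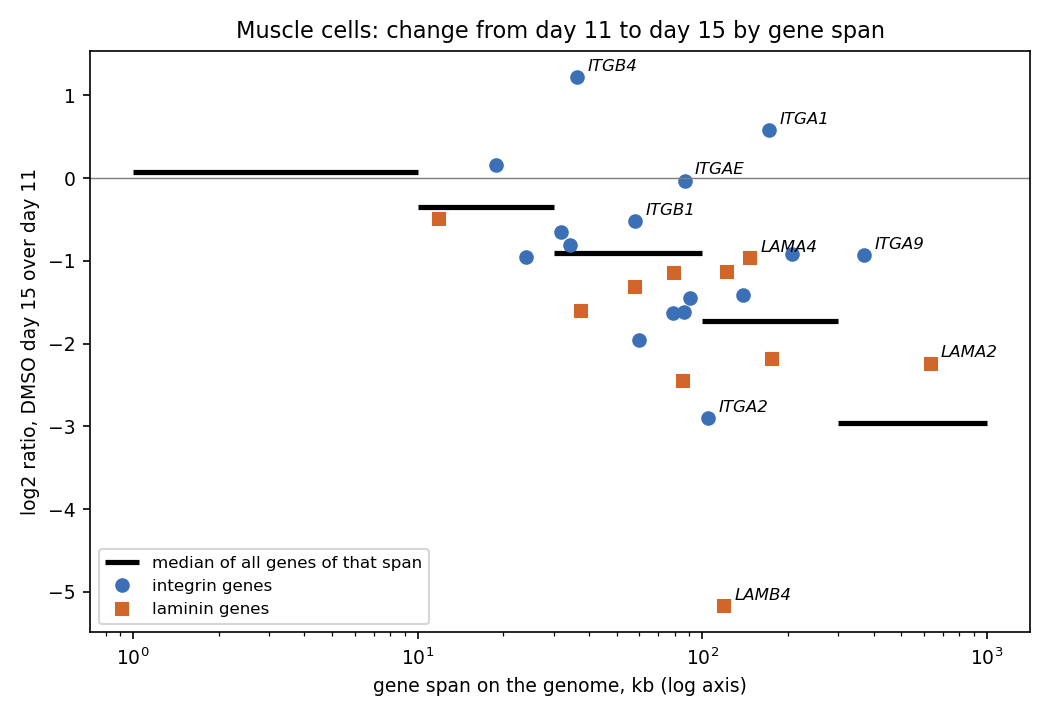
Log2 ratio of DMSO day 15 over day 11 in muscle-like cells against the span of each member on a log axis in kb, with horizontal lines for the median of all genes in 5 bins of span. Members lie on both sides of the lines, with ITGA9 far above the line for its span, and LAMB4, which had no UMI in DMSO, is drawn with the pseudocount of 0.5.

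The 20 members that stayed below 50 CPM in every library and class account for the rest. The highest of them were ITGA1, with at most 44.5, LAMC3, a gamma chain, with 42.7 in day 11 endothelial-like cells, ITGB5 with 34.1, ITGA7 with 31.0, ITGA10 with 28.6 and ITGA3 with 25.7. ITGA10 had that level in DMSO endothelial-like cells, on 10 UMIs, and 25.3 and 17.4 in the endothelial-like cells of the day 11 and CHIR libraries, where muscle-like and mesenchymal-like cells held 0.400 to 2.25. The leukocyte subunits were near nothing: ITGAL, ITGAM and ITGAX had 14, 5 and 7 UMIs in all named classes at day 11, ITGB2 30 over the 3 libraries and ITGB7 9. ITGA4, ITGB6, LAMA3, LAMB3 and LAMB4 had 44 to 72 UMIs each over the named classes.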

How the data were processed

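Single-cell 3' libraries of day 11, day 15 DMSO and day 15 CHIR cells were analysed from deposited tables of raw UMI counts per gene and cell; per the submitters' processing notes the authors used Cell Ranger 6.1.1 and GRCh38, with R 4.1.0 and Seurat 4.3.0 named for day 11. The deposited tables held 5683, 4015 and 5607 cells. Scrublet (scanpy 1.11.5, expected rate 0.06) removed 220 cells in DMSO. At day 11 it called 1, which was kept, and in CHIR 0. Cells were thus removed in DMSO alone, and doublets may remain in the day 11 and CHIR libraries. Gates were set on UMIs of a marker list per 10000 of the cell. Muscle needed 120 or more with under 10 mesenchymal, and mesenchymal 10 or more with under 60 muscle. Endothelial needed 10 or more over 5 genes and endoderm 30 or more over 4 genes, each with under 120 muscle. Cells of either class could also pass the mesenchymal gate. Kept apart were 137 to 802 cells a library that passed the muscle gate and another, or both the endothelial and endoderm gates. The remaining 314 to 518 fell in no class, including any past the mesenchymal gate with 60 to 120 muscle. UMIs were summed per class and library. Levels have exact Poisson, shares exact binomial and ratios exact conditional binomial (Clopper-Pearson) intervals (scipy 1.17.1). Log2 ratios used a pseudocount of 0.5. A ratio was measured from 20 UMIs. The interval code was tested on simulated data. Values were to be given one by one for members with at least 50 CPM. Alternatives changed totals, TMM factors (edgeR 4.0.16), filters, gates, doublets, free RNA, averaging and gene span. The members, lists and motifs were chosen with earlier results of these data known. Histone peak files of the series were not used here. RefSeq GRCh38.p14 matched all 36 members. One member is counted in the totals and is otherwise not reported here.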

Additional observations from a re-analysis of the deposited data

Results flagged for a closer look

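LAMA2, the laminin chain of muscle fibres, went in opposite directions in the cell classes between CHIR and DMSO. Its ratio of CHIR over DMSO was 0.645 in muscle-like cells (25.2 against 39.0 CPM) and 2.63 in mesenchymal-like cells (3.16 against 1.2). The muscle-like intervals of 22.9 to 27.6 and 36.5 to 41.7 did not overlap, nor did the mesenchymal-like ones of 2.68 to 3.69 and 0.833 to 1.68, which rest on 158 and 34 UMIs. The muscle-like ratio was within 1.5-fold with the gates doubled (0.818), with TMM factors (0.673) or without mitochondrial and ribosomal protein genes in the totals (0.734). In mesenchymal-like cells LAMA2 was at 3.08% of its muscle-like level in DMSO, near the 2.77% median of muscle markers there. In CHIR it was at 12.5%, above the 2.59% of the markers. With 1 library per treatment the difference between the classes was not tested.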

How the results depend on the processing

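No paired analysis was possible because each group has 1 library. Of the recomputed counts of members past 1.5-fold, 119 stayed within 1.5 times the value reported and 23 did not. In CHIR against DMSO muscle-like cells, without a filter on low counts 6 members were higher and 10 lower, and from 200 UMIs 1 and 3. In mesenchymal-like cells 1 was lower from 200 UMIs and 13 relative to genes of like span, a scale added after seeing the data. In DMSO against day 11 muscle-like cells the higher members numbered 3 with TMM factors, 2 without mitochondrial and ribosomal protein genes in the totals, 3 with no filter, 0 from 200 UMIs, 2 with doublet calls kept, 2 with free RNA taken off and 8 by like span; the lower ones numbered 12 with TMM factors and 8 by like span. For muscle-like against mesenchymal-like cells, 10 were lower at day 11 and 3 in DMSO from 200 UMIs, and 10 in CHIR with no filter. In DMSO against day 11 mesenchymal-like cells, 0 were higher from 200 UMIs, 0 with the gates at 0.5 of their thresholds and 5 by like span, and 15 were lower with TMM factors and 12 by like span. Filters changed how many members were measured; the cause of the other moves was not tested. Of the recomputed ratios of single members, 690 stayed within the counting interval of the main ratio, 203 moved outside it and 7 turned. Ratios crossed 1.5-fold or turned 24 times by like span and 11 times with TMM factors. The latter included ITGA5 (0.783), ITGA9 (0.789) and LAMB1 (0.679) in DMSO against day 11 muscle-like cells. Among 111 single ratios 7 turned, all in DMSO against day 11 by like span. In muscle-like cells these were ITGA8 (1.76), ITGA9 (4.1), LAMA2 (1.65), LAMA4 (1.69) and LAMC1 (1.51), and in mesenchymal-like cells LAMA2 (1.26) and LAMC1 (1.06). Totals without mitochondrial and ribosomal protein genes raised the ratios of CHIR over DMSO by 0.19 on the log2 scale in muscle-like and 0.17 in mesenchymal-like cells. Unthinned shares of cells with LAMA4 were 75.0%, 63.3% and 67.9% of muscle-like and 3.07%, 2.82% and 4.53% of mesenchymal-like cells at day 11, in DMSO and in CHIR, and with ITGA8 1.35%, 0.840% and 3.81% and 53.7%, 28.8% and 45.8%.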

Other observations

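Within the classes some members varied with other genes; these groups of cells were formed after the data were seen and are described without a test. Mesenchymal-like cells with TAGLN, a smooth muscle gene, at 20 or more UMIs per 10000 had more ITGB1 and ITGAV than the others in each library. ITGB1 was at 703 against 438 CPM at day 11, 411 against 233 in DMSO and 438 against 192 in CHIR, and ITGAV at 218 against 96.9, 50.3 against 24.6 and 82.3 against 27.9. In DMSO, mesenchymal-like cells with a UPK3B UMI (510 cells) had ITGA3 at 22.2 (19.5 to 25.1) and ITGA8 at 12.4 (10.4 to 14.6), and those with a STMN2 UMI (411 cells) had ITGA3 at 5.85 (4.14 to 8.03) and ITGA8 at 40.8 (36.0 to 46.0). The DMSO muscle-like cells with a UMI of SHOX2, a gene of the sinus node, numbered 67, and their LAMA4 level was 7.31 (2.94 to 15.1) against 119 in the whole class, on 7 UMIs. LAMB1 in them was at 2.09 on 2 UMIs, while ITGB1 was at 289 (256 to 325) and ITGA7 at 28.2 (18.6 to 41.0). Only 4 such cells were found in CHIR and 0 at day 11.

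Neighbouring members differed in class or level in some of the pairs described here. On chromosome 5, 30.1 kb separates ITGA1 from ITGA2, and at day 11 ITGA1 was at 2.80 in muscle-like and 44.5 in mesenchymal-like cells where ITGA2 was at 10.4 and 5.13. The ratio of muscle-like over mesenchymal-like level of ITGA2 was 2.03 at day 11 (1.38 with the gates halved), 1.26 in DMSO and 0.732 in CHIR. That of ITGA1 was 0.0630, 0.142 and 0.0539, so in CHIR both were below 1. On chromosome 16, ITGAM and ITGAX lie 22.3 kb apart and were both scarce, with 5 and 7 UMIs in the named classes at day 11. On chromosome 7, 8.50 kb separates LAMB1 from LAMB4, and LAMB4 stayed at or below 1.25 in every named class.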
